A study of Homo sapiens with 20 samples.

Results

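The SLC2A genes encode the GLUT carriers, membrane proteins that let sugars and related solutes move down their concentration gradient. They were followed here in HL60, an established human acute myeloid leukaemia (AML) cell line that matures towards neutrophils when given all-trans retinoic acid (ATRA). All rows with the symbols SLC2A1, SLC2A3, SLC2A5, SLC2A6, SLC2A8, SLC2A9, SLC2A10, SLC2A11, SLC2A13 or SLC2A14 were taken, which gave 10 genes of 28051 named genes in the RNAseq files. Of the 8286 regions in the ATACseq files, 6 listed 1 of these genes. The study compared cells labelled HK3-null with cells that express Cas9 only, called Cas9 control. Knockouts had been made with Cas9 and grown from single cells. A single knockout label covers the HK3-null libraries, which may therefore come from 1 clone, so that genotype and clone cannot be told apart. Both genotypes were kept for 36 h in 1 µM ATRA or in 0.01% DMSO, the diluent, and both had been through Cas9 delivery. RNAseq held 3 biological replicates of each of the 4 groups (12 libraries), and ATACseq, which reads how open the chromatin is, held 2 of each (8 libraries).

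Class I carriers such as SLC2A1 (GLUT1) and SLC2A3 (GLUT3) bring glucose into cells at rest, and SLC2A3 has a high affinity that suits cells with a large demand for glucose. Class II holds SLC2A5 (GLUT5), which carries fructose, and SLC2A9, which carries urate. Class III carriers, such as SLC2A6 and SLC2A8, largely reside on intracellular membranes, and SLC2A13 moves myo-inositol together with protons. Blood cells of the neutrophil lineage depend heavily on glycolysis, and the hexokinases phosphorylate glucose once a GLUT has let it in.

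RNAseq values were whole counts after scaling, called normalized counts here, with 22700000 to 37000000 counts estimated for a library before scaling. All 8 markers of promyelocytic cells reached a mean of at least 10 in each group, and the summed markers of T cells and of erythroid cells were at most 12 and 13 in any library. Epithelial and fibroblast markers, 5 genes, summed to at most 97 except in Cas9 DMSO replicate 1, where they reached 465, with COL1A1 at 321 normalized counts. Monocyte markers, 4 genes, summed to 112 to 490. CD14 went from at most 4 in Cas9 control to 77 to 125 in HK3-null libraries, and FCGR1A was also higher in HK3-null cells. CSF1R averaged 40.0 in Cas9 DMSO and 110.7 in HK3-null DMSO, but 326 against 162 in ATRA. VCAN was at 117 in Cas9 DMSO replicate 1 and at most 5 elsewhere. The summed markers of eosinophils and basophils, 5 genes, moved with the genotype, mostly through PRG2. Their sum was 7274 to 8183 in Cas9 DMSO libraries and 163455 to 171164 in HK3-null DMSO libraries, and 276 to 412 against 43150 to 52186 in ATRA. EPX and CLC were higher in HK3-null cells as well, whereas CPA3 averaged 12.7 in Cas9 DMSO and 5.67 in HK3-null DMSO. Markers of ATRA-treated myeloid cells, 5 genes, summed to 286 to 297 in Cas9 DMSO and 1627 to 1701 in HK3-null DMSO, and to 8479 to 9401 against 42764 to 52604 in ATRA. TGM2 carried most of the ATRA difference, at 1047 against 33889 on average. B cell markers, 4 genes, summed to 46 to 108 in Cas9 control and 147 to 194 in HK3-null libraries, with MS4A1 at 0 throughout and PAX5 the gene that differed. IL5RA was at 0 in Cas9 ATRA and at most 3 elsewhere, and the part of these markers in the results below was not tested. HK3 RNA was no lower under the HK3-null label, with 302 to 346 normalized counts in DMSO against 65 to 105 in Cas9 control, and 1285 to 1975 in ATRA against 1298 to 1850. The level of a transcript does not tell whether its gene was edited. In bulk RNA, fewer cells of a type and less RNA per cell cannot be told apart.

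The deposited regions carry the chromatin data, and some of their sequences are given first. A region held the start of SLC2A8, at chr9:127396587-127397369 on GRCh38, and covered all 300 bases of its RefSeq promoter, chr9:127396919-127397218 on the plus strand. The promoter is printed because accessibility and RNA of this gene both fell to the floor in HK3-null cells. Capitals mark CCAAT and GGGCGG. The retinoid receptor half-sites AGGTCA and GGTTCA, GAGGAAGT of PU.1, TTGCNNAA of C/EBP, TGANTCA of AP-1 and TGTGGT of RUNX were searched as well, all on both strands.

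SLC2A8 promoter: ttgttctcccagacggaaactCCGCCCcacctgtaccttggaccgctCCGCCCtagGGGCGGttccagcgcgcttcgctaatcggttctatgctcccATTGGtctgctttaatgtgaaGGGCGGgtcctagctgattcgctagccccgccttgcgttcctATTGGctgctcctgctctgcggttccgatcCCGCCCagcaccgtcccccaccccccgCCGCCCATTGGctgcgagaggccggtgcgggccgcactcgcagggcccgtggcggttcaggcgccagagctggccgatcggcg

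The letters CCAAT occurred 3 times, each on the minus strand, beginning at 98, 161 and 224 bases from the left end of the printed strand and so spaced 63 bases apart. At least 3 matches were present in 3.26% of the 35116 promoters of this length in the RefSeq table. GGGCGG occurred 6 times without overlapping CCAAT, a number reached by 2.86% of promoters. GGTTCA occurred 1 time and is not in capitals, and 8.62% of promoters hold it. The others gave no match. The sequence held 30 CG pairs and 67% G or C, against medians of 14 and 58.7% over all promoters. These matches describe letters and not binding.

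A pair of regions inside the SLC2A9 span are set side by side because their accessibility differed between genotypes in opposite directions. Both overlapped no annotated exon of SLC2A9 and were centred 228.3 kb and 7.47 kb from the gene's start. Exons of other genes in the span were not checked. The central 300 bases of each, plus strand, were searched for the same letters, and capitals mark matches other than CCAAT and GGGCGG.

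SLC2A9 distal region, chr4:9811836-9812135: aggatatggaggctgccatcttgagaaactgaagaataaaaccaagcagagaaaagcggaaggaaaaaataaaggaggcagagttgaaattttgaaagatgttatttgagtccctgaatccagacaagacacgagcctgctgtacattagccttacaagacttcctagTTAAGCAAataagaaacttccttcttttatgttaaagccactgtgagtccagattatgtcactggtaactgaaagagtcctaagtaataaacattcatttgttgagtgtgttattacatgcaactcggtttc
SLC2A9 region near the start, chr4:10032655-10032954: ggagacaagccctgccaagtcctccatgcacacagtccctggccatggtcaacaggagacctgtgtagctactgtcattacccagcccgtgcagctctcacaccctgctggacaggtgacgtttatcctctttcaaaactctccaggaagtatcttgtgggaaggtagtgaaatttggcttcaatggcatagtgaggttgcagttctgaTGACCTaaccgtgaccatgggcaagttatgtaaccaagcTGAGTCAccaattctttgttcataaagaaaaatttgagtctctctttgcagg

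The distal window held 1 match to TTGCNNAA, present in 18.5% of the central windows of all 8286 regions. The window near the start held 1 match to AGGTCA, present in 17.9%, 1 match to TGANTCA, present in 18.1%, and 1 match to CCAAT, present in 29.8%.

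Which carriers these cells transcribed was read per kilobase of the canonical GENCODE transcript, the scale on which genes can be compared. In Cas9 DMSO cells SLC2A1 stood at 861 ± 178 normalized counts per kb (SD, n = 3) and SLC2A5 at 678 ± 27.5, and together they made up most of the members' summed level of 1839 ± 210. SLC2A8 followed at 139.9 ± 5.30 and SLC2A9 at 103.9 ± 9.98. SLC2A13, SLC2A3 and SLC2A11 lay between 10.1 and 27.9 on average, and SLC2A6, SLC2A10 and SLC2A14 were below 2. Ranges of neighbours in this order did not overlap down to SLC2A11, whereas those of SLC2A6, SLC2A10 and SLC2A14 did.

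ATRA put SLC2A5 in the lead in both genotypes. It held 80.8% of the members' summed level per kb in Cas9 ATRA (76.9% to 83.3% over libraries) and 88.5% in HK3-null ATRA (87.5% to 89.5%), against 37.1% in Cas9 DMSO and 21.1% in HK3-null DMSO. SLC2A3 changed its rank with genotype, from the sixth place in Cas9 DMSO to the third in HK3-null DMSO at 193.8 ± 16.2 per kb, and from the seventh to the third in ATRA at 283 ± 42.0. In HK3-null ATRA the ranges of SLC2A1, at 348 ± 109 per kb, and SLC2A3 overlapped. SLC2A8 went from 139.9 per kb in DMSO and 62.5 in ATRA to 0.

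**Figure D1:**
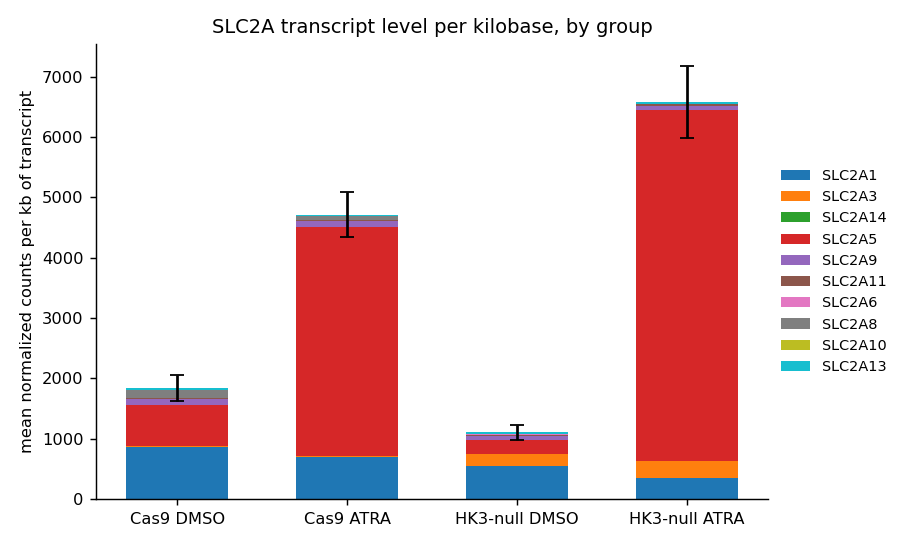
Mean normalized counts per kilobase of canonical transcript (y axis) for the 10 SLC2A genes, stacked by group, with error bars giving the SD of the sum over 3 libraries. SLC2A5 forms most of both ATRA bars, SLC2A3 is visible only in the HK3-null bars, and the summed level was 1839 in Cas9 DMSO and 6585 in HK3-null ATRA.

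Of the 10 genes, 8 had a log2 normalized count above 3, averaged over a group, in some group and were tested, while SLC2A10 and SLC2A14 had not. In DMSO, 5 of the 8 passed between genotypes at a limma adjusted p under 0.05, 2 higher and 3 lower in HK3-null cells. Over all 13256 genes tested, 55% passed, 27.9% higher and 27.1% lower. In ATRA 7 of the 8 passed, 4 higher and 3 lower, where 59.1% of all genes did, 29.6% higher and 29.5% lower. SLC2A6 and SLC2A8 were over the filter through 1 genotype only, so their calls are given as description. Of the other 6, which were over it in both, 4 passed in DMSO, 2 higher and 2 lower, and 5 in ATRA, 3 higher and 2 lower. SLC2A1, SLC2A5, SLC2A9, SLC2A11, SLC2A13 and SLC2A14 overlap other RefSeq genes, and how strand was counted is not given, so reads of overlapping genes may be mixed in their values. The members' shares have to be read against a background in which most genes differed.

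The class I carrier SLC2A3 had the largest rise between genotypes among the members that passed and had no library at 0. Its normalized counts were 57, 51 and 74 in Cas9 DMSO and 672, 791 and 762 in HK3-null DMSO. With ATRA, Cas9 control gave 42, 45 and 67, and HK3-null cells gave 958, 1029 and 1265. Every HK3-null library lay above every Cas9 control library by a wide margin. The log2 fold change was 3.63 ± 0.20 (SE, limma adjusted p = 4.81e-08) in DMSO and 4.42 ± 0.20 (adjusted p = 1.10e-08) in ATRA. A change of at least 2-fold with an adjusted p under 0.05 was seen for 19.3% of all genes in DMSO and 21.3% in ATRA.

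With ATRA, SLC2A3 rose by 0.54 ± 0.20 on the log2 scale in HK3-null cells (limma adjusted p = 0.0385), and this call was lost without HK3-null ATRA replicate 2 (adjusted p = 0.0675) or 3 (0.135) and without HK3-null DMSO replicate 1 (0.121), 2 (0.0616) or 3 (0.0698). In Cas9 control the value was -0.25 ± 0.20 (adjusted p = 0.326), and with quantile normalization it was -0.52 and passed (adjusted p = 0.0400). The difference between these responses was 0.80 ± 0.28 (adjusted p = 0.109), and it passed with the replicate number as a block (adjusted p = 0.00914), with quantile normalization (1.08, adjusted p = 0.0193) and without Cas9 ATRA replicate 3 (adjusted p = 0.0241).

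SLC2A1, the main glucose carrier of most cells, was lower in HK3-null cells. It held 3586, 2730 and 2428 normalized counts in Cas9 DMSO and 2303, 1879 and 1417 in HK3-null DMSO, and 3126, 2242 and 1662 against 1534, 1199 and 799 in ATRA. The groups did not overlap in either treatment, although the spread inside each group was wide. In ATRA the change passed, at -0.996 ± 0.28 on the log2 scale (limma adjusted p = 0.00968). In DMSO it was -0.65 ± 0.28 and missed the threshold (adjusted p = 0.0694), and it passed with the replicate block (adjusted p = 2.10e-05). The block likewise moved the response of SLC2A1 to ATRA past the threshold, at -0.34 in Cas9 control (adjusted p = 0.359 without and 0.00258 with the block) and -0.69 in HK3-null cells (0.0631 and 1.56e-05). The difference between these responses, -0.34, passed only with the block (adjusted p = 0.688 without and 0.0407 with it).

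The opposite movements of these class I carriers show in their ratio within each library. SLC2A3 stood at 0.0192 ± 0.00685 of SLC2A1 per kb in Cas9 DMSO (SD, n = 3) and at 0.369 ± 0.109 in HK3-null DMSO. In ATRA the ratio was 0.0218 ± 0.0124 in Cas9 control and 0.904 ± 0.442 in HK3-null cells, where a single library, replicate 3, had more SLC2A3 than SLC2A1 per kb (ratio 1.40).

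SLC2A14, a close copy of SLC2A3, was nearly silent. It was at 0 in all 6 Cas9 control libraries, at 1, 0 and 0 in HK3-null DMSO and at 2, 2 and 4 in HK3-null ATRA. Its coding sequence matches that of SLC2A3 at 96.8% of 1488 aligned bases, so reads can be split between them and the few counts of SLC2A14 are uncertain. Around SLC2A3 (chr12:7919230-7936187), the 4 tested genes within 250 kb, FOXJ2, C3AR1, NECAP1 and CLEC4A, passed as higher in HK3-null cells in both treatments, with log2 fold changes of 0.42 to 1.65 in DMSO and 0.50 to 1.28 in ATRA. Over all genes tested, 27.9% passed as higher in DMSO and 29.6% in ATRA.

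SLC2A5, the fructose carrier, had the largest ATRA change that passed among the members in both genotypes, and was the member whose genotype change passed in opposite directions in the 2 treatments. Cas9 control cells had 2892, 2670 and 2751 normalized counts in DMSO and 15789, 16134 and 14650 in ATRA. HK3-null cells had 1024, 899 and 932 in DMSO and 24029, 25996 and 21389 in ATRA. The 4 groups did not overlap, and HK3-null cells were lowest in DMSO and highest in ATRA. ATRA raised SLC2A5 by 2.49 ± 0.08 on the log2 scale in Cas9 control (limma adjusted p = 7.59e-10), where 9.63% of all genes changed by at least 2-fold with an adjusted p under 0.05. In HK3-null cells the rise was 4.64 ± 0.08 (adjusted p = 1.10e-11), against 14.1% of all genes.

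Between genotypes SLC2A5 was lower in HK3-null DMSO, at -1.54 ± 0.08 (limma adjusted p = 2.53e-08), and higher in HK3-null ATRA, at 0.61 ± 0.08 (adjusted p = 3.04e-05). The difference of these changes was 2.16 ± 0.11 on the log2 scale (adjusted p = 5.99e-07), a 4.46-fold difference in response. It was the only member of 8 to pass this test, which 9.12% of all genes passed. With the replicate block 3 members passed it, and so did 2898 of all 13256 genes, against 1209 without the block.

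**Figure D2:**
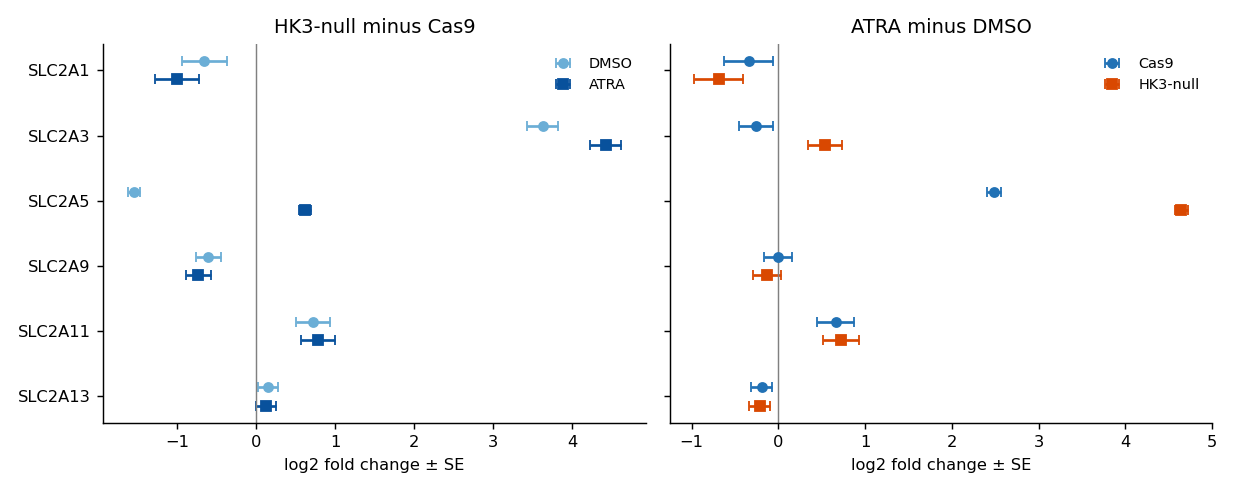
Log2 fold changes with SE (x axis) of the 6 members whose counts were above 0 in every library. The left panel sets the genotypes against each other, for each treatment, and the right panel sets ATRA against DMSO in each genotype. SLC2A5 changes side between treatments on the left, from -1.54 to 0.61, and SLC2A3 is the member farthest to the right there.

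SLC2A9, the urate carrier of class II, at 211, 196 and 174 normalized counts in Cas9 DMSO and 108, 149 and 128 in HK3-null DMSO, was lower in HK3-null cells by -0.60 ± 0.16 on the log2 scale (limma adjusted p = 0.00772). In ATRA it was 226, 165 and 190 against 123, 123 and 103, a change of -0.73 ± 0.16 (adjusted p = 0.00217). Its values did not separate by treatment in either genotype.

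SLC2A11, a class II carrier with several isoforms, passed as higher with both factors, though its ATRA calls depended on the setting. Counts were 30, 33 and 31 in Cas9 DMSO, 45, 42 and 64 in Cas9 ATRA, 54, 53 and 48 in HK3-null DMSO and 88, 68 and 103 in HK3-null ATRA. The genotype changes were 0.72 ± 0.21 in DMSO (limma adjusted p = 0.0124) and 0.78 ± 0.21 in ATRA (adjusted p = 0.00721). The ATRA changes were 0.66 ± 0.21 in Cas9 control (adjusted p = 0.0259) and 0.72 ± 0.21 in HK3-null cells (adjusted p = 0.0139). The ATRA change in Cas9 control missed the threshold without Cas9 ATRA replicate 3 (adjusted p = 0.102) and without Cas9 DMSO replicate 1 (0.0658) or 3 (0.0575), and that in HK3-null cells without HK3-null ATRA replicate 3 (0.0566). Quantile normalization ended both, at 0.38 in Cas9 control (adjusted p = 0.174) and 0.52 in HK3-null cells (0.0611), and a fit of only the 2 groups compared ended the former (0.0650).

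For ATRA, 2 of the 8 tested members passed in Cas9 control, both higher, where 41.6% of all genes passed, 20.3% higher and 21.3% lower. In HK3-null cells 3 passed, all higher, where 49% of all genes did, 24% higher and 25.1% lower. These directions depended on the setting. With the replicate block SLC2A1 passed as lower in both genotypes, which gave 3 and 4 members. In that fit 7409 and 8126 of all 13256 genes passed, against 5508 and 6502 without the block. With quantile normalization SLC2A3 and SLC2A13 passed as lower in Cas9 control.

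SLC2A8, an intracellular class III carrier, was at 0 in HK3-null cells. It had 305, 287 and 308 normalized counts in Cas9 DMSO and 151, 116 and 135 in Cas9 ATRA. All 6 HK3-null libraries were at 0. Against a floor of 3 counts per library, SLC2A8 was at least 103-fold lower in HK3-null cells in DMSO and at least 43.4-fold lower in ATRA. These limma calls (adjusted p = 2.92e-08 and 4.23e-08) are description, since SLC2A8 was over the filter through Cas9 control only. In that fit 0 stands as 0.001. In Cas9 control ATRA lowered SLC2A8 from 300 ± 11.4 to 134.0 ± 17.5 (SD, n = 3), and the groups did not overlap. On the deposited scale, where 0 is written as the log2 of 0.001, this change of -1.17 ± 0.91 did not pass (adjusted p = 0.334), and on the log2(count + 1) scale it did, at -1.16 (adjusted p = 0.000970).

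SLC2A6, a lysosomal class III carrier, was higher in HK3-null cells at low counts. It had 10, 1 and 1 normalized counts in Cas9 DMSO, 0, 3 and 3 in Cas9 ATRA, 26, 42 and 39 in HK3-null DMSO and 26, 20 and 19 in HK3-null ATRA. After undoing the scaling, 113 counts against 14 gave a ratio of 8.37 (95% exact binomial interval 4.79 to 15.8) in DMSO, and 64 against 6 gave 10 (4.35 to 28.3) in ATRA. Of the 14 counts, all but 2 were in Cas9 DMSO replicate 1, the library with COL1A1 above, and without it the ratio was 37.8 (10.2 to 316). These intervals cover counting error only. The limma test passed in ATRA (adjusted p = 0.0342) and not in DMSO (0.186), and on the log2(count + 1) scale it passed in DMSO as well (0.000869). These calls are description, since SLC2A6 was over the filter through HK3-null cells only. The ATRA call was lost without HK3-null ATRA replicate 1 (adjusted p = 0.0756), 2 (0.0711) or 3 (0.0678).

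SLC2A13, the myo-inositol carrier, passed in none of the 5 comparisons as fitted, with 158 to 239 normalized counts over all libraries. Its largest change was -0.22 ± 0.13 on the log2 scale, for ATRA in HK3-null cells (limma adjusted p = 0.176). With quantile normalization it passed as lower with ATRA in Cas9 control (-0.37, adjusted p = 0.0401) and in HK3-null cells (-0.34, adjusted p = 0.0486). SLC2A10 was at 0 in 11 libraries and at 4 in Cas9 DMSO replicate 1. This library also had the most genes above 0, 16750 against 15031 to 15801 in the others. Without it the number of members passing between genotypes in DMSO was 5, as with it.

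**Figure D3:**
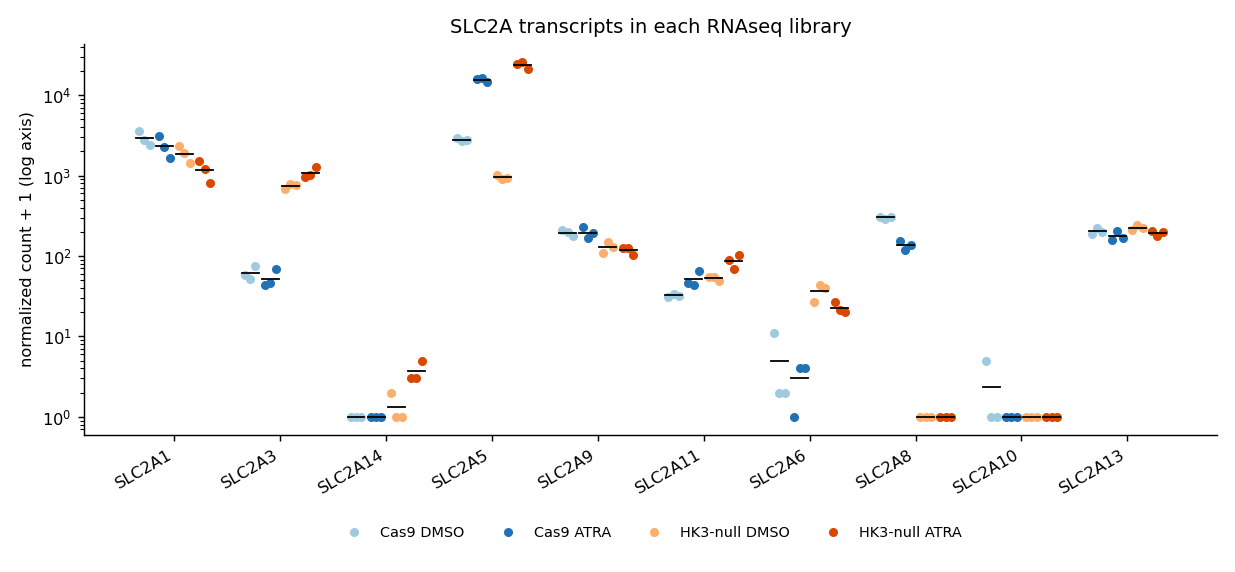
Normalized count plus 1 (y axis, log scale) of each SLC2A gene in each RNAseq library. Each point is a library, and the black lines are means of 3 libraries. SLC2A8 lies at 0 counts in the 6 HK3-null libraries, SLC2A3 lies above every Cas9 control library there, and SLC2A5 is highest in HK3-null ATRA.

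The other 4 SLC2A genes are in the files and were near the floor. SLC2A2 was at 0 throughout, SLC2A7 was at most 2, and SLC2A12 was at 26 in Cas9 DMSO replicate 1 and at most 1 elsewhere. SLC2A4, the insulin-responsive carrier, had 1, 2 and 2 normalized counts in Cas9 DMSO, 1, 2 and 22 in Cas9 ATRA, 20, 17 and 6 in HK3-null DMSO and 0 in the 3 HK3-null ATRA libraries.

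Chromatin at the members was read as ATACseq signal, a fragment density. All 8286 deposited regions differ by at least 1.65-fold between genotypes in ATRA, so values in that contrast are described and not tested (100% of the regions over the signal filter would pass, to 3 digits). The contrast in DMSO compared the means of other libraries, but its estimate of spread was shared with the ATRA libraries. The regions were also selected on a difference between the same genotypes, so this contrast is not independent of the selection. The tests of ATRA against DMSO share their ATRA libraries with the selection. Of the 6 regions, 5 had a mean signal above the filter, and 4 of these passed between genotypes in DMSO (limma adjusted p under 0.05), 2 lower and 2 higher. The group means of each of these 4 were above the filter of 17.1 in 1 genotype only, so their calls are given as description. Over the 6214 regions tested, 86.6% passed, 42.7% higher and 43.9% lower.

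At the SLC2A8 promoter the signal was 337 and 343 in Cas9 DMSO, 349 and 242 in Cas9 ATRA, 3.04 and 3.60 in HK3-null DMSO and 4.54 and 2.61 in HK3-null ATRA. Every HK3-null library was far below every Cas9 control library. The log2(signal + 1) change in DMSO was -6.31 ± 0.33 (limma adjusted p = 1.05e-17). ATRA did not move it past the threshold in Cas9 control, at -0.22 ± 0.33 (adjusted p = 0.711), while SLC2A8 RNA was 2.24-fold lower there. The deposited annotation lists GARNL3 for this region too. GARNL3 RNA went the other way, with 44.7 ± 2.89 normalized counts in Cas9 DMSO and 120.3 ± 7.64 in HK3-null DMSO (SD, n = 3, log2 fold change 1.43, limma adjusted p = 1.72e-05). In ATRA it had 17.7 ± 0.577 and 23.0 ± 1.00, a change of 0.38 that did not pass (adjusted p = 0.0611).

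The tested genes around SLC2A8 were above 0 on average in all groups. Of 7 tested neighbours within 250 kb, 2 were higher and 2 lower in HK3-null DMSO, and 1 higher and 2 lower in ATRA. Over all genes tested, 27.9% passed as higher and 27.1% as lower in DMSO, and 29.6% and 29.5% in ATRA. The log2 fold changes of the neighbours ran from -1.58 for RALGPS1 to 1.43 in DMSO and from -0.91 to 1.02 in ATRA. The nearest on the other side, ZNF79, was 0.46 ± 0.22 in DMSO (limma adjusted p = 0.0940).

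**Figure D4:**
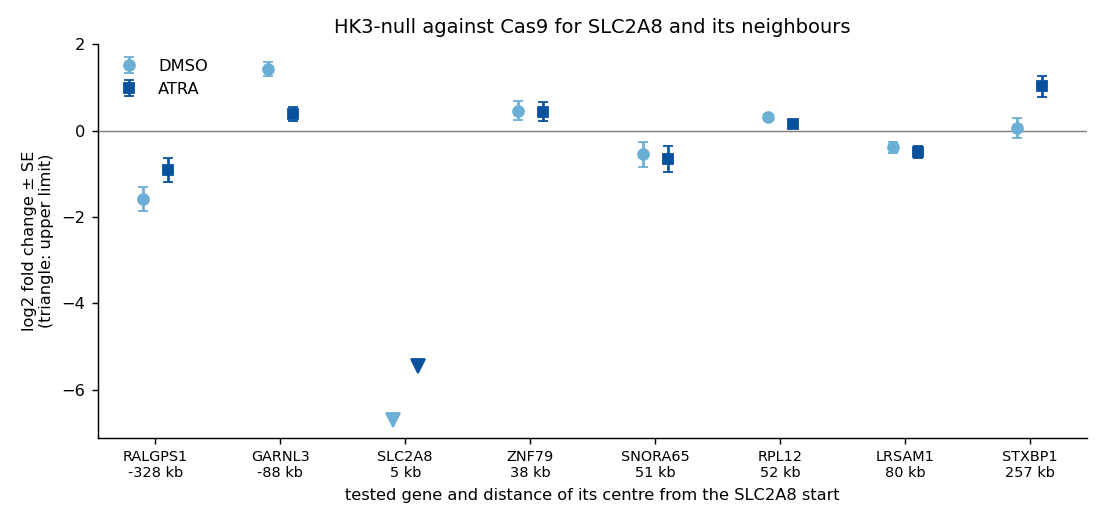
Log2 fold change with SE (y axis) of HK3-null against Cas9 control for the tested genes around SLC2A8, ordered along the x axis by the distance of their centres from its start. Triangles give the upper limits for SLC2A8, whose HK3-null libraries were at 0. SLC2A8 lies far below its 7 neighbours, which run from -1.58 to 1.43.

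A region that lists SLC2A5 followed the direction of its RNA under ATRA. Its signal was 14.3 and 23.6 in Cas9 DMSO, 82.7 and 70.5 in Cas9 ATRA, 10.3 and 15.5 in HK3-null DMSO and 138 and 190.1 in HK3-null ATRA. All 4 ATRA libraries lay above all 4 DMSO libraries. ATRA raised log2(signal + 1) by 1.99 ± 0.33 in Cas9 control (limma adjusted p = 3.70e-05), 1 of 5 tested regions where 18.2% of all regions passed. In HK3-null cells the rise was 3.58 ± 0.33 (adjusted p = 1.27e-09), again 1 of 5, where 16.8% passed. The difference of these rises was 1.58 ± 0.47 and did not pass (adjusted p = 0.142). This difference holds the contrast between genotypes in ATRA by which the regions were selected, so it is description. In DMSO the genotypes overlapped, at -0.51 ± 0.33 (adjusted p = 0.145), whereas SLC2A5 RNA was 2.91-fold lower in HK3-null cells.

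SLC2A9 listed 3 regions, all inside its span on chromosome 4 and outside the annotated exons of SLC2A9. The distal region printed above, at chr4:9811793-9812178, had 43.4 and 50.5 in Cas9 DMSO and 7.42 and 9.75 in HK3-null DMSO, a change of -2.33 ± 0.39 (limma adjusted p = 2.39e-06). A neighbouring one at chr4:9825073-9825293 was below the signal filter and untested, with 7.71 and 9.57 against 1.29 and 2.14. The region near the start, at chr4:10032557-10033051, went the other way, with 12.6 and 10.5 against 24.1 and 31.7, at 1.20 ± 0.39 (adjusted p = 0.00532). Without HK3-null DMSO replicate 2 this last change missed the threshold (1.00, adjusted p = 0.0731). SLC2A9 RNA was lower in HK3-null cells in both treatments, as given above.

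SLC2A14 listed 1 region, at chr12:7837381-7837788 in an intron of its canonical transcript. The signal was 10.7 and 6.33 in Cas9 DMSO and 32.5 and 39.3 in HK3-null DMSO, and the change of 1.99 ± 0.41 passed (limma adjusted p = 5.59e-05). The RNA of SLC2A14 stayed at or under 4 normalized counts in every library.

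**Figure D5:**
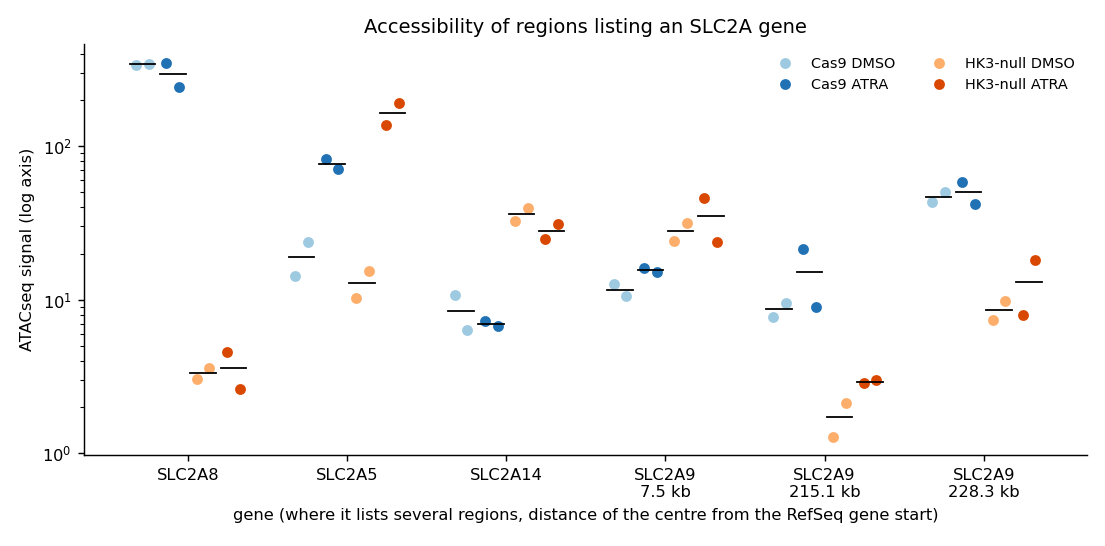
ATACseq signal (y axis, log scale) of the 6 regions that list a member, by library, with the distance of the centre from the RefSeq gene start below the name where a gene lists several regions. Points are libraries and black lines are means of 2. The SLC2A8 region falls to about 3 in HK3-null cells, and the SLC2A5 region is higher in the 4 ATRA libraries.

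For the 3 members that averaged 50 normalized counts or more and had a change of at least 2-fold that passed, the genes of most similar pattern were found by the root mean square difference of centred log2 values over 12 libraries, among 10665 genes. Nearest to SLC2A3 were TEAD3 (0.40), FRMD3 (0.40) and ZNF717 (0.41). TEAD3 had 122.7 ± 15.5 normalized counts in Cas9 DMSO and 1269 ± 103 in HK3-null DMSO (SD, n = 3). Nearest to SLC2A5 were GALNT12 (0.33), CD1D (0.36) and SPECC1 (0.42). GALNT12 had 48.7 ± 6.66 in Cas9 DMSO, 388 ± 59.2 in Cas9 ATRA, 19.7 ± 1.53 in HK3-null DMSO and 680.3 ± 44.1 in HK3-null ATRA, the same order of groups as SLC2A5. Genes picked by this measure resemble the member through the choice itself, TEAD3 and GALNT12 included. Nearest to SLC2A8 were RANBP17 (0.47), ZNF441 (0.67) and LOC105370849 (0.69), and all 3 were at 0 in the 6 HK3-null libraries, as this measure requires of any gene close to SLC2A8.

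The steps after uptake were followed in lists. Their counts are to be read against all genes tested, of which 27.9% rose and 27.1% fell in HK3-null DMSO, 29.6% and 29.5% in HK3-null ATRA, 20.3% and 21.3% with ATRA in Cas9 control, and 24% and 25.1% with ATRA in HK3-null cells. Of the hexokinases, 3 were tested. HK2 had 4566 ± 609 normalized counts in Cas9 DMSO and 3829 ± 361 in HK3-null DMSO. This log2 change of -0.25 (limma adjusted p = 0.296) passed with the replicate block (adjusted p = 0.0330). In ATRA the genotype change of HK2 was -0.37 (adjusted p = 0.124), and it too passed with the block (adjusted p = 0.00439). ATRA lowered HK2 in both genotypes, by -1.25 ± 0.19 in Cas9 control (adjusted p = 0.000364) and -1.37 ± 0.19 in HK3-null cells (adjusted p = 0.000126). HK1 was lower in HK3-null DMSO, at 43.0 ± 4.36 against 137.7 ± 48.7 (-1.63 ± 0.23, adjusted p = 0.000111). HKDC1 was at most 1.

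All 15 glycolysis enzymes were tested, and 10 fell and 1 rose in HK3-null cells in each treatment, with median log2 changes of -0.58 in DMSO and -0.75 in ATRA against 0.00 and 0.01 over all genes. PFKM, the muscle form of phosphofructokinase, fell most, from 1105 ± 79.3 to 27.0 ± 2.65 normalized counts in DMSO (-5.36 ± 0.14, limma adjusted p = 1.96e-10). PFKL, the liver form, was the gene that rose in DMSO (0.36 ± 0.06, adjusted p = 0.000507), and PGAM1 in ATRA (0.58 ± 0.05, adjusted p = 2.21e-06). For ATRA, 9 fell and 0 rose in Cas9 control and 6 fell and 3 rose in HK3-null cells, and LDHA fell most in both (-0.91 and -0.89). Of 4 lactate export genes, 2 fell in HK3-null DMSO, and in ATRA 2 fell and 1 rose. SLC16A1 fell most (-0.495 and -0.998), and SLC16A3, the carrier of glycolytic cells, rose in ATRA (0.64).

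Among 10 other sugar and inositol carriers 6 were tested. In HK3-null cells 3 rose and 2 fell in DMSO, and 3 rose and 3 fell in ATRA. The sugar phosphate exchangers moved apart, with SLC37A2 higher by 3.68 ± 0.28 in DMSO and 5.03 ± 0.28 in ATRA (limma adjusted p = 8.49e-07 and 6.40e-08) and SLC37A1 lower by 4.60 ± 0.25 and 4.35 ± 0.25 (adjusted p = 5.00e-08 and 6.94e-08). Of 13 genes for GLUT trafficking and turnover, 4 rose and 3 fell in DMSO and 3 rose and 3 fell in ATRA. ARRDC4, an arrestin that acts on GLUT endocytosis, fell in HK3-null ATRA (-1.57 ± 0.19, adjusted p = 2.39e-05). Its relative TXNIP rose with ATRA, by 0.95 ± 0.12 in Cas9 control (adjusted p = 8.81e-05) and 0.62 ± 0.12 in HK3-null cells (adjusted p = 0.00127).

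Of 9 transcriptional regulators of glucose uptake, 3 rose and 1 fell in HK3-null DMSO, and 3 rose and 2 fell in ATRA. The DMSO rises include MLXIPL, which rests on counts of 0 to 2. MLXIPL, which encodes the glucose sensor ChREBP, was at 0 in Cas9 DMSO and at 382 ± 59.5 normalized counts in Cas9 ATRA, at least 139-fold higher. It was at 2, 1 and 0 in HK3-null DMSO and at 1256 ± 30.1 in HK3-null ATRA. MYC, which promotes glycolytic genes, fell with ATRA by 2.06 ± 0.14 on the log2 scale in Cas9 control and 2.91 ± 0.14 in HK3-null cells (limma adjusted p = 6.97e-07 and 2.73e-08). HIF1A rose in HK3-null ATRA (0.81), and SREBF1 fell in both treatments (-1.27 and -0.89).

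Lists tied to the other substrates of these carriers were small. Of 5 fructose and polyol genes, 4 were tested, 3 fell and 0 rose in HK3-null DMSO, and 3 fell and 1 rose in ATRA. The rise is AKR1B1, with 0, 0 and 14 normalized counts against 11, 10 and 8, groups that overlap and a call that rests on the value for 0. KHK, the fructokinase that acts after SLC2A5, fell from 145 ± 19 to 51.7 ± 12.7 normalized counts in DMSO (-1.51 ± 0.25, limma adjusted p = 0.000326) and from 120.3 ± 4.04 to 15.7 ± 4.51 in ATRA (-2.98 ± 0.25, adjusted p = 1.32e-06). Of 8 urate and purine genes, 2 were tested, and PNP rose in both treatments (0.42 and 1.41). Of 6 genes for dehydroascorbate, a further GLUT substrate, 1 rose and 1 fell in DMSO and 3 rose and 2 fell in ATRA, with GLRX lower in DMSO (-1.38). SLC23A1, among the ATRA falls, rests on values of 0 among counts of at most 10. Of 6 inositol genes 5 were tested, and 2 rose and 2 fell in each treatment, IMPA1 most (1.45 and 1.41).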

How the data were processed

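Per the labels and the study's methods, directional paired-end RNAseq reads were mapped to GRCh38. The authors deposited log2 values, here raised back to whole normalized counts. 0 is written as the log2 of 0.001. The methods name RPKM, but no scaling by length was visible, and the submitters' notes name DESeq2. The counting of strand is not given in the sources used here. The deposited ATACseq signal is the fragment density of merged MACS2 regions after the authors reduced libraries to equal size; its depth is unknown.

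limma 3.58.1 in R 4.3.3 (trended eBayes, 1 mean per group, Benjamini-Hochberg adjustment) was fitted over the 13256 genes above a log2 value of 3 in the mean of any group, and over 6214 regions with a mean signal above 17.1 as log2(signal + 1). Scaling factors, 0.7805 to 1.215, were estimated from gaps in the whole numbers, and floors are 3 counts per library. Replicate numbers paired the RNAseq libraries: over 10667 genes, deviations from group means correlated at 0.178 to 0.631 in all 18 same-numbered pairs, so blocked values are given where a call changes. The fits were tested on simulated data. Named genes are all SLC2A genes and hexokinases, the largest rise and fall that passed in each list and contrast (mean at least 50; the text prints part of these), and the 3 nearest genes of each called member; the others were chosen after their values were seen. Members and lists were chosen with earlier results of these data known. Sequences are from RefSeq promoters and the GRCh38 genome. Alternatives covered scaling, the value for 0, filters, the block, single libraries, the prior variance, chromosome medians and thresholds. Some items are not reported here.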

Additional observations from a re-analysis of the deposited data

Results flagged for a closer look

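The change between genotypes differed between treatments, by the interaction test of the same limma fit at an adjusted p under 0.05, for 17 of the 44 named genes tested, most of which were picked for large changes between groups, so that this share says nothing beside that of all genes. Values are the log2 change in ATRA minus that in DMSO. SLC2A5 had 2.16 (adjusted p = 5.99e-07), with 2771 and 951.7 mean normalized counts in DMSO and 15524 and 23805 in ATRA (Cas9 control, then HK3-null). SLC2A4 had -14.78 (adjusted p = 0.000373), which rests on values of 0 in HK3-null ATRA and has no meaning as a size. HK3 had -1.90 (adjusted p = 0.00202), since as fitted its genotypes differed in DMSO (1.96) and hardly in ATRA (0.05).

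In glycolysis and lactate export, PFKM had 1.46, PGAM1 0.98 and SLC16A3 0.55. PGAM1 went from lower in HK3-null DMSO (-0.40) to higher in ATRA (0.58). Among carriers, trafficking genes and regulators, SLC37A4 had -0.24, GIPC1 1.27, TBC1D4 -0.77 and MYC -0.85. In fructose and polyol metabolism, KHK had -1.47, TKFC -0.40 and SORD -0.66. In the purine and dehydroascorbate lists, PNP had 0.99, P4HB 0.40, GLRX 1.07 and GSTO1 0.43. These last 14 genes had adjusted p from 1.52e-05 to 0.0429. Groups of 3 and 2 libraries were not tested for libraries that stand apart.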

How the results depend on the processing

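Over the settings tried, 859 of 912 values of SLC2A genes stayed on the same side of the threshold. Of the rest, 20 lost and 33 gained a call, and no called value reversed. The 912 values include SLC2A8 for ATRA in HK3-null cells, which was bound to be 0 in all 23 settings. They also include the genotype values of SLC2A6 and SLC2A8, which are description. Values that did not pass could change sign, as SLC2A6 did for ATRA in Cas9 control (-5.30 to 0.48). For regions 179 of 180 values stayed on the same side of the threshold. Members passing numbered 5 (5 to 6 with a library left out) between genotypes in DMSO, 7 (6 to 7) in ATRA, 2 (1 to 2) for ATRA in Cas9 control, 3 (1 to 4) in HK3-null cells and 1 (1 to 2) for the interaction. The interaction count became 2 with quantile normalization, log2(count + 1), log2(count + 10), no trend, or unadjusted p under 0.05 with 1.5-fold, and 3 with the replicate block. With log2(count + 1), log2(count + 10) and no trend, the member gained was SLC2A8. Its HK3-null libraries were all at 0, so this value only restates its ATRA change in Cas9 control. Regions numbered 4 (3 to 4), 1 (1 to 1) and 1 (1 to 1). The interaction count over all genes was 1209, and 2898 with the replicate block. With unadjusted p and 1.5-fold, all genes passing were 4454, 5007, 2782 and 3758 in the 4 contrasts in the order above, from 7285, 7840, 5508 and 6502. With chromosome medians subtracted, GLRX in HK3-null ATRA went from -0.31 to 0.46. HK3 in HK3-null ATRA went from 0.05 (limma adjusted p = 0.836) to 0.83 (adjusted p = 0.00563) in that setting. The cause was not tested. For ATACseq the numbers only label libraries (correlations of same numbers -0.209 to 0.0539), and the block moved no region's call past the threshold. Scaling shifted the median of all genes by at most 0.0551. Whether RNAseq or ATACseq replicates are separate clones is not stated, so p-values measure the spread between these samples.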
